A study of Mus musculus with 10 samples.

Results

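The genes described are 42 genes of cell division, chosen by name: genes that copy DNA, the E cyclins that open S phase, and genes of mitosis and cell separation. A gene was measured where a probe set on the array was annotated with that gene alone, and the brightest such probe set over the 10 arrays was taken. This gave 40 of the 42 genes, out of 12393 genes in all, and Ccnb1 and Cdca8 were not analysed here. Of the 40, 10 belong to replication, 2 are E cyclins and 28 belong to mitosis. The tissue was the optic nerve head of male C57Bl/6 mice aged 6 to 8 weeks, the site where the axons of retinal ganglion cells leave the eye. In the elevated pressure group the anterior chamber of the right eye had been cannulated and kept at 30 mmHg during 1 h, and the mice recovered for 3 days before collection. The control group was the left eye of the mice, which had no operation and was collected at the same time, so pressure, cannulation and body side cannot be told apart. Each array held RNA from a pool of 2 nerve heads, with 5 arrays per group from 10 mice. The pools are called biological replicates, and nothing states that equal replicate numbers are the same mice.

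A cell that divides first copies its DNA and then parts the copies. Before S phase the Mcm2 to Mcm7 proteins load onto origins as a ring that later unwinds DNA, and cyclin E with its kinase helps to start copying. In mitosis the kinase Cdk1 with A and B cyclins drives entry, the spindle and its checkpoint sort the chromosomes, and the anaphase-promoting complex and the cytokinesis machinery end division. Transcripts of both phases are known to be repressed in resting cells by the DREAM complex, through E2F sites in many replication genes and through a short element named CHR in many mitosis genes, often beside CCAAT boxes bound by NF-Y. In the adult nerve most glia do not divide, and precursors of oligodendrocytes, microglia, endothelial cells and fibroblasts can.

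Start-site sequences from RefSeq (GRCm38.p6) were found for 33 of the 40 measured genes. They are shown for 7 genes whose values are given below, 4 of mitosis and then 3 of replication, to set motifs of both groups beside their values. Each line is the 160 bases that end just before the annotated start, 5′ to 3′ along the gene. Capitals mark the CHR letters TTTGAA or TTCGAA, the letters CCAAT, and the E2F letters TTTCCCGC, TTTGGCGC, TTTCGCGC or TTTGCCGC, each on either strand. E2F matches on opposite strands overlap in Mcm5 and Mcm6.
Top2a, chr11:99024190-99024349, minus strand: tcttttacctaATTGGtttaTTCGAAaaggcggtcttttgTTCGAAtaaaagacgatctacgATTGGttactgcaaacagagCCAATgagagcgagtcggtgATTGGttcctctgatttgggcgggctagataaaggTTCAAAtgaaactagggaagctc
Cdk1, chr10:69352913-69353072, minus strand: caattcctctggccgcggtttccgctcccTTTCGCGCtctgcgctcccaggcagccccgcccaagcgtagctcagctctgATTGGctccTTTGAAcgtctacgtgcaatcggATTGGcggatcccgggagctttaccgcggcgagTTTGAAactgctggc
Ube2c, chr2:164769769-164769928, plus strand: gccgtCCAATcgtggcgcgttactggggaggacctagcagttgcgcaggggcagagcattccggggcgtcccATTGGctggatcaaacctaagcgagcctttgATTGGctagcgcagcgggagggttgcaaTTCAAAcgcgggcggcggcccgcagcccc
Cdc20, chr4:118437344-118437503, minus strand: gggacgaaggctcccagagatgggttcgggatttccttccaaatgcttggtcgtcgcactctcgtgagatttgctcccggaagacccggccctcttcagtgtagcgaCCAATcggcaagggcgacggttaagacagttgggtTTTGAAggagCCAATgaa
Mcm5, chr8:75109349-75109508, plus strand: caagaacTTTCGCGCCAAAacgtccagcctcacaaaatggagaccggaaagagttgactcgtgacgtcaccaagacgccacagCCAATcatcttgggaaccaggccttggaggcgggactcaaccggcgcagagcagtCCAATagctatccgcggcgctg
Mcm6, chr1:128359706-128359865, minus strand: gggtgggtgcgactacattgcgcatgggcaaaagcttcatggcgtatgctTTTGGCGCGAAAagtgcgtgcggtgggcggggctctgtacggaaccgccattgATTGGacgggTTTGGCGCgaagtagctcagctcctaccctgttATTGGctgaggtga
Rrm2, chr12:24708094-24708253, plus strand: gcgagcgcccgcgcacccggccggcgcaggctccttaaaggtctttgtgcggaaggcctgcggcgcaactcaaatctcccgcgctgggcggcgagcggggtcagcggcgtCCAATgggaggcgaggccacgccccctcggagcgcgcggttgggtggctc

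In Ube2c, whose product hands ubiquitin to targets of the anaphase-promoting complex, CCAAT matches began 155, 88 and 57 bases before the start and the CHR match 29 bases before it. Cdk1 had CCAAT matches at 80 and 48 bases, CHR matches at 71 and 15 bases and an E2F match at 131 bases before the start. Mcm6 had E2F matches at 110, 106 and 47 bases, CCAAT matches at 57 and 14 bases and no CHR match in the bases shown. Over windows of 300 bases (250 before and 50 after the start), CHR letters lay in 21 of 25 windows of 23 mitosis genes (84%) and in 2 of 10 windows of 9 replication genes (20%). Among all 32851 windows the share was 19.2%. CCAAT letters lay in 84% of the mitosis windows and 90% of the replication windows, against 37.4% of all windows. E2F letters lay in 4% and 40%, against 2.26% of all. These shares describe letters in a window, and no test was made of them.

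The mitosis genes gave weak signals in this tissue. The 27 control probe sets for bacterial dap, lys, phe, thr and trpn transcripts, which no mouse gene should fill, had mean signals from 8.73 to 47.6. Probe sets differ in their background, so this is a rough gauge and not a detection call. The mean signal of 6 members lay within that range: Tyms, Foxm1, Melk, Bub1, Cenpe and Ttk. Leaving out the dimmest 25% of all genes kept 9 of 10 replication genes, 1 of 2 E cyclins and 12 of 28 mitosis genes. Leaving out the dimmest 50% kept 5 replication genes and 0 mitosis genes.

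No cell division gene differed between the groups at a limma adjusted p under 0.05 (0 of 40, against 0% of 12393 genes). The lowest adjusted p among the members was 0.849. The replication genes were evenly split after elevated pressure: 5 stood higher and 5 lower, and their median log2 fold change on the log2(signal + 16) scale was -0.00. Of the mitosis genes 8 were higher and 20 lower, with a median of -0.06, where the median of all genes was -0.01 and 6536 of 12393 were lower. At an unadjusted limma p under 0.05 there were 2 lower members, Ttk and Kif20a, and 0 higher ones, against 1.32% and 2.65% of all genes. The groups overlapped in all 40 members, where 0.403% of all genes had non-overlapping groups with elevated pressure higher and 0.226% with it lower. In pooled tissue, a change in the number of dividing cells and one in RNA per cell could not be told apart. The whole 95% confidence interval was inside a 1.5-fold change either way in 9 of 10 replication genes and 13 of 28 mitosis genes, against 76.8% of all genes. Among the 23 mitosis genes outside the range of the bacterial controls it was so in 10. This scale understates fold changes of dim genes, so a short interval there does not show a steady transcript. Within 2-fold were 38 of the 40 (95%), against 95.5% of all genes.

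**Figure D1:**
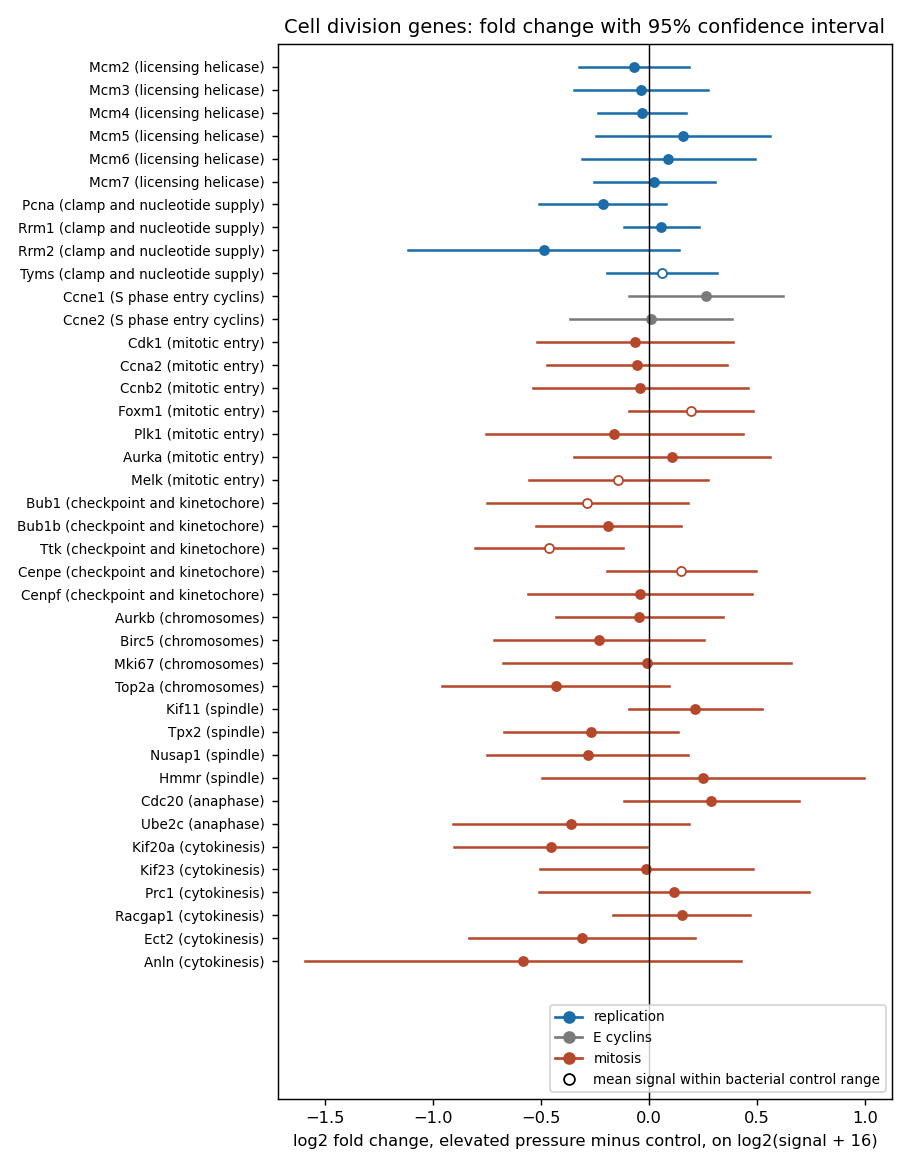
Log2 fold change of each measured cell division gene, elevated pressure minus control, with its 95% confidence interval from the limma fit (n = 5 arrays per group), coloured by group and with open circles for the 6 genes whose mean signal lay within the range of the bacterial controls. Apart from Ttk and Kif20a every interval includes 0. Among the replication genes the interval is longest in Rrm2, followed by Mcm5 and Mcm6.

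The median of the mitosis genes depended on single arrays. Without elevated pressure replicate 4 it was -0.23, with 21 of 28 lower, and 8 members were lower at an unadjusted p under 0.05 (against 1.73% of all genes in that fit): Kif20a, Ttk, Bub1, Birc5, Top2a, Ube2c, Nusap1 and Rrm2, each with a limma adjusted p of 0.827. In that fit 0 members were higher at this level, against 2.14% of all genes. Elevated pressure replicate 4 had the highest median of the mitosis genes, with 26 of 28 above their mean over all arrays. Leaving it out therefore lowers most of their fold changes, whatever the other arrays hold. The 8 members also share pools, so their count is not one of independent genes. Without elevated pressure replicate 2 the median of the mitosis genes was -0.01, with 14 of 28 lower. At an unadjusted limma p under 0.05 that fit had 0 higher members (3.35% of all genes) and 1 lower, Ttk (1.35%). Without control replicate 3, 2 members were higher, Cenpe (0.28) and Kif11 (0.34), and 1 lower, Ttk, against 2.57% and 1.08% of all genes. Without elevated pressure replicate 1 the median was -0.09, and 1 member was higher, Cdc20 (0.41), and 1 lower, Ttk, against 2.1% and 1.11%. With control replicates 1, 2 or 4 left out it was -0.14, -0.16 and -0.12. With the dimmest 25% of genes left out it was -0.15 (9 of 12 lower), and with the mean over probe sets -0.10. The median of the replication genes stayed between -0.03 and 0.05 with any 1 array left out.

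Among the genes of the licensing helicase, Mcm2 to Mcm7, the log2 fold changes ran from -0.07 to 0.16, 3 of them higher and 3 lower. Mcm2 had signals of 511, 670, 546, 707 and 690 in control replicates 1 to 5 and of 550, 650, 676, 541 and 550 in elevated pressure replicates 1 to 5. All elevated pressure values lay inside the control range, and the log2 fold change was -0.07 with an interval from -0.32 to 0.19. Mcm5, the member with the smallest p of this role, had signals of 138, 89.98, 141, 180 and 105 in control and 165, 127, 109, 189 and 142 in elevated pressure tissue. The groups overlapped almost wholly, with a log2 fold change of 0.16 (standard error 0.182, limma adjusted p = 0.859). With 1 array left out the value of Mcm5 lay between 0.050 and 0.27. Mcm6 reached 1202 in elevated pressure replicate 1, where the other 9 arrays lay between 614 and 917, and its log2 fold change was 0.09, or -0.06 without that array. Mcm3, Mcm4 and Mcm7 stood at -0.04, -0.03 and 0.03.

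Pcna, the sliding clamp that holds polymerases on DNA, was lower than the control median in all 5 elevated pressure arrays. Its signals were 3142, 2942, 3246, 3167 and 2971 in control and 1833, 2807, 2835, 3074 and 2991 in elevated pressure tissue. Replicate 1 of the elevated pressure group stood far below the rest, and the other 4 lay near or within the control range. The log2 fold change was -0.21 with an interval from -0.51 to 0.08. Rrm2, the regulated subunit of ribonucleotide reductase, had signals of 698, 603, 870, 739 and 714 in control and 234, 405, 675, 801 and 657 in elevated pressure tissue. Elevated pressure replicates 1 and 2 were below all control arrays and the other 3 were within the control range. Its log2 fold change of -0.49 had an interval from -1.11 to 0.14 (limma adjusted p = 0.849). The probe set used can share probes with other transcripts by its name, and the other probe sets of Rrm2, both within the range of the bacterial controls, stood at -0.01 and -0.08. Rrm1, the large subunit of the same enzyme, varied least of all members, 1.23-fold over the 10 arrays on the signal + 16 scale, and stood at 0.06. Tyms, which makes thymidylate, stood at 0.06 with signals no higher than 38.9.

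Of the E cyclins, Ccne1 was above the control median in all 5 elevated pressure arrays. Its signals were 75.3, 88.5, 76.1, 99.7 and 72.7 in control and 82.7, 83.3, 88.6, 160 and 109 in elevated pressure tissue. Only elevated pressure replicates 4 and 5 were above the highest control, and the log2 fold change was 0.27 with an interval from -0.09 to 0.62, or 0.12 without replicate 4. Ccne2 stood at 0.01.

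Genes of mitotic entry had log2 fold changes between -0.16 and 0.19, 2 higher and 5 lower. Cdk1, the kinase that drives entry, had signals of 286, 260, 292, 229 and 300 in control and 145, 275, 341, 357 and 239 in elevated pressure tissue. The elevated pressure arrays spread on both sides of the control range, and the log2 fold change was -0.06, or 0.13 without elevated pressure replicate 1. Its partner cyclins Ccna2 and Ccnb2 stood at -0.05 and -0.04, and both had their highest value of all arrays in elevated pressure replicate 4 (657 and 145). Foxm1, a transcription factor of the mitosis genes and the member of this role with the smallest p, had signals of 43.6, 27.5, 46.2, 31.0 and 38.8 in control and 51.4, 36.8, 38.5, 57.0 and 41.3 in elevated pressure tissue. The groups overlap and the mean signal lies within the range of the bacterial controls, with a log2 fold change of 0.19, which became 0.12 when control replicate 2 was left out and 0.13 when elevated pressure replicate 4 was. The other probe sets of Foxm1, all within that range too, stood at -0.06, 0.13 and 0.04. The kinases Plk1, Aurka and Melk stood at -0.16, 0.11 and -0.14.

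In the checkpoint and kinetochore group 1 gene was higher and 4 were lower. Ttk, a kinase of the spindle checkpoint, had the smallest unadjusted p of all members (0.0130). Its signals were 13.4, 10.2, 7.63, 21.9 and 16.2 in control and 2.76, 3.33, 2.10, 9.7 and 10.5 in elevated pressure tissue. Elevated pressure replicates 1, 2 and 3 were below every control array and replicates 4 and 5 were within the control range. Single values of the bacterial control probe sets ran from 2.16 to 75.2, and no value of Ttk was above that range. For Ttk the log2 fold change came to -0.46, standard error 0.156 (limma adjusted p = 0.849). This size depends on the pseudocount: it was -1.29 with 1 and -0.16 with 64, and whether any of its signal came from Ttk transcripts was not tested. The checkpoint genes Bub1 and Bub1b stood at -0.28 and -0.19, the kinetochore motor gene Cenpe at 0.15 and the kinetochore gene Cenpf at -0.04. The other probe set of Bub1, also dim, stood at 0.06.

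Mki67, which encodes the Ki-67 protein that coats mitotic chromosomes and marks cycling cells, differed widely within both groups and hardly between them. Its signals were 83.7, 35.7, 113, 41.4 and 65.8 in control and 83.3, 46.5, 35.6, 115 and 57.0 in elevated pressure tissue. Both groups ran from about the same lowest to the same highest value. The group means were 68.0 ± 31.9 (SD, n = 5) and 67.4 ± 31.8 (SD, n = 5), a log2 fold change of -0.01 with an interval from -0.67 to 0.66. Top2a, the topoisomerase that untangles chromosomes, had signals of 542, 461, 647, 388 and 471 in control and 254, 228, 462, 556 and 419 in elevated pressure tissue. As in Rrm2, elevated pressure replicates 1 and 2 were below all control arrays and the other 3 within their range. The log2 fold change of Top2a was -0.43 with an interval from -0.95 to 0.10, or -0.27 without elevated pressure replicate 2, while its dimmer probe set stood at 0.13. Birc5 and Aurkb, parts of the chromosomal passenger complex, stood at -0.23 and -0.04.

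Of the spindle genes 2 were higher and 2 lower. Kif11, the motor that pushes spindle poles apart, had signals of 70.7, 58.8, 109, 66.8 and 64.8 in control and 84.5, 71.5, 93.6, 100.01 and 86.2 in elevated pressure tissue. Every elevated pressure array was above 4 of the 5 control arrays, and control replicate 3 was above them all. The log2 fold change was 0.22, and 0.34 without control replicate 3 (limma adjusted p = 0.890), while the dimmer probe sets of Kif11 stood at 0.00 and -0.30. Tpx2 and Nusap1, spindle assembly proteins, stood at -0.27 and -0.28, and Hmmr, another spindle protein, at 0.25 with the wide interval from -0.50 to 1.00.

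At anaphase the 2 genes differed in sign. Cdc20, the activator of the anaphase-promoting complex, had signals of 131, 105, 136, 165 and 190 in control and 125, 197, 177, 254 and 160 in elevated pressure tissue. Replicates 2 and 4 of elevated pressure were above the highest control, and the log2 fold change was 0.29 with an interval from -0.12 to 0.70, and 0.17 when replicate 4 was left out. It was 0.19 with control replicate 2 left out and 0.16 with the mean over probe sets. The other probe sets of Cdc20 stood at 0.20 and, within the range of the bacterial controls, -0.01. Ube2c had signals of 150, 152, 182, 119 and 125 in control and 50.8, 107, 137, 184 and 105 in elevated pressure tissue. Replicates 1, 2 and 5 of elevated pressure were below all controls and replicate 4 was the highest of all 10 arrays, with a log2 fold change of -0.36 and an interval from -0.91 to 0.19.

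Of the cytokinesis genes 2 were higher and 4 lower. Kif20a, a motor of the central spindle, had signals of 75.7, 97.7, 70.4, 75.9 and 88.8 in control and 57.1, 35.0, 43.6, 105 and 50.6 in elevated pressure tissue. In 4 of 5 elevated pressure arrays Kif20a was below every control array, and in replicate 4 it was above every one. Kif20a had a log2 fold change of -0.45, standard error 0.202 (limma adjusted p = 0.849), and -0.65 without replicate 4 (adjusted p = 0.827). Kif23 and Racgap1, which form the centralspindlin complex, stood at -0.01 and 0.15, and the RhoA activator gene Ect2 at -0.31. Ect2 stood at -0.12 and Racgap1 at 0.075 when elevated pressure replicate 1 was left out. Without control replicate 2 Ect2 stood at -0.20, and Racgap1 was at 0.080 and 0.081 when control replicate 1 or elevated pressure replicate 4 was left out. Prc1, which bundles spindle microtubules, stood at 0.12 by its brighter probe set and -0.39 by the other one, and neither probe set was within the bacterial range.

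**Figure D2:**
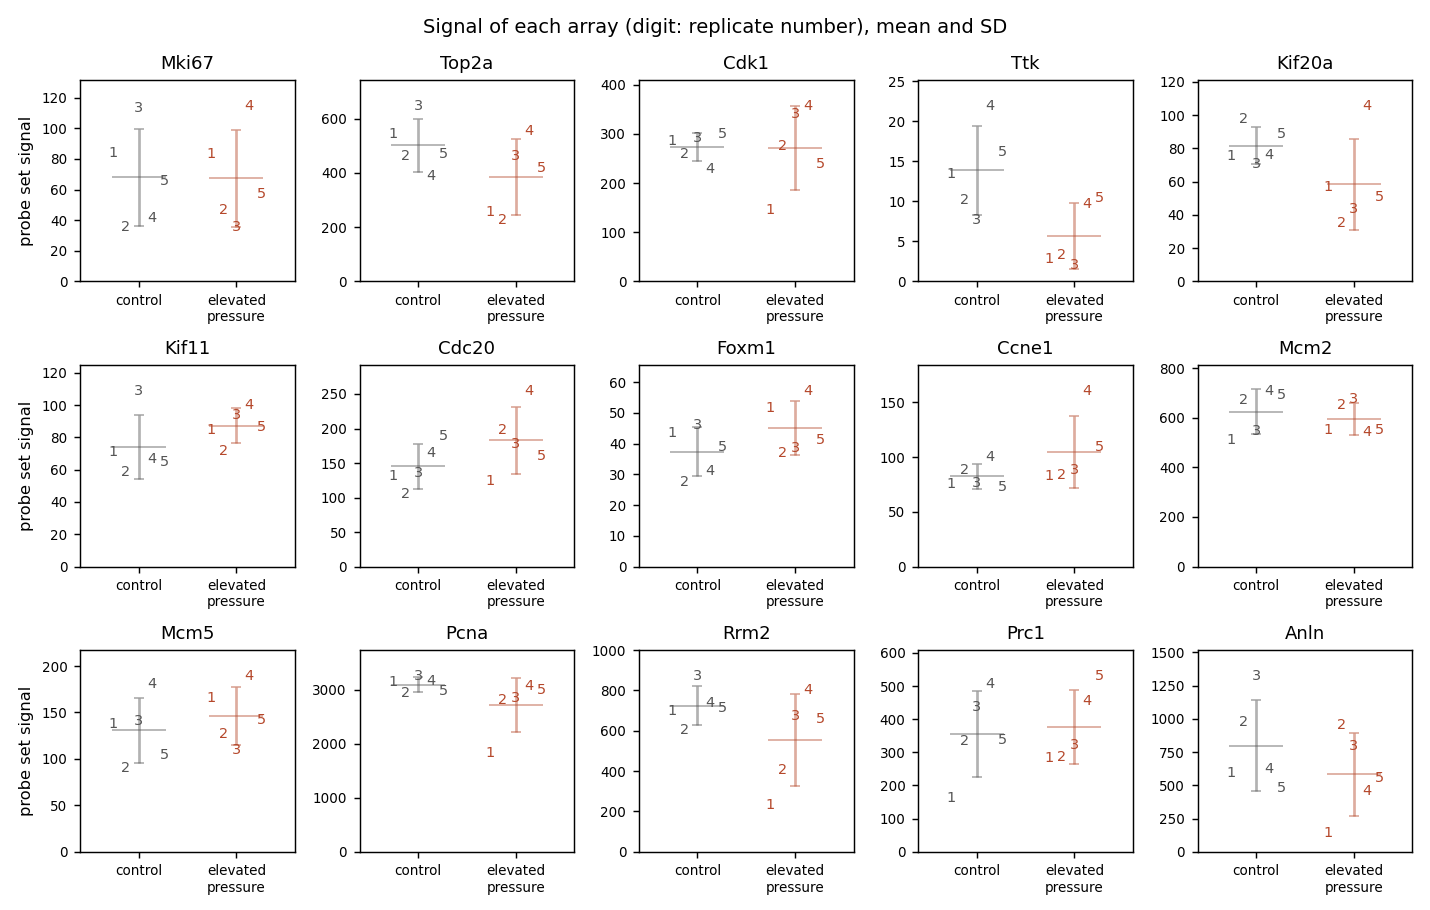
Probe set signal (linear scale from 0, arbitrary units) of 15 cell division genes on each array, control on the left and elevated pressure on the right of each panel, with digits for replicate numbers, a bar for the mean and error bars for the SD (n = 5). The groups overlap in every panel. Elevated pressure replicate 4 is the highest of its group in Mki67, Top2a, Cdk1, Kif20a, Kif11, Cdc20 and Foxm1. It is also the highest in Ccne1, Mcm5, Pcna and Rrm2, but not in Ttk, Mcm2, Prc1 and Anln.

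Anln, which encodes the cytokinesis scaffold anillin, had the largest fold change of the members and was singled out after its values were seen. Its signals were 595, 976, 1320, 624 and 480 in control and 143, 953, 798, 459 and 558 in elevated pressure tissue. It spanned 8.38-fold over the 10 arrays on the signal + 16 scale, more than any other member, and its log2 fold change of -0.58 had an interval from -1.59 to 0.43. This became -0.16 when elevated pressure replicate 1 was left out, and -0.38 when control replicate 3 was. Anln is also known as a gene of myelinating oligodendrocytes. Of 4 oligodendrocyte markers 3 were measured. Mog had signals of 4796, 7531, 7989, 6302 and 4635 in control and 1875, 6622, 6116, 4167 and 6272 in elevated pressure tissue, and Mag 1821, 3445, 4402, 2096 and 1923 against 733, 2405, 2436, 1700 and 2329. Anln, Mog and Mag each had their highest value in control replicate 3 and their lowest in elevated pressure replicate 1. The third marker, Mbp, did not share these arrays: it lay between 13490 in control replicate 4 and 15433 in control replicate 2. The highest signal of an array ran from 17992 to 20168, so Mbp lay near the top of the scale. Whether its differences are compressed there was not tested. The sum of the 3, mostly Mbp, ran from 20216 to 26775 in control and from 16549 to 23482 in elevated pressure arrays. Markers of oligodendrocyte precursors and of microglia and macrophages, given below, were on average also highest in control replicate 3 and lowest in elevated pressure replicate 1. Those of astrocytes and endothelial cells did not have both. The part of oligodendrocytes in the values of Anln was not tested.

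The mitosis genes tended to shift together on some arrays of the elevated pressure group and in control replicate 3. Correlations inside either group alone were not computed. Relative to each gene's mean over the 10 arrays, the median deviation of the 28 mitosis genes was 0.39 in elevated pressure replicate 4, where 26 of 28 were above their mean, and 0.30 in control replicate 3, where 22 were. It was -0.29 and -0.27 in elevated pressure replicates 1 and 2, where 6 and 4 of 28 were above their mean. In the other 6 arrays it lay between -0.06 and 0.15. The 10 replication members had another order: their median deviation was 0.17 and 0.03 in elevated pressure replicates 1 and 2, 0.06 in replicate 4 and -0.02 in control replicate 3, and it was highest, at 0.21, in control replicate 4. The fork enzymes, 17 replication genes outside the members, shared the highest arrays of the mitosis genes but not all of their lowest. Their median was 0.30 in elevated pressure replicate 4 (15 of 17 above their mean), 0.11 in control replicate 3 (13 of 17) and -0.10 in elevated pressure replicate 1 (4 of 17). It was 0.01 in elevated pressure replicate 2 and lowest, at -0.16, in control replicate 5. The median over all genes stayed between -0.04 and 0.06.

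**Figure D3:**
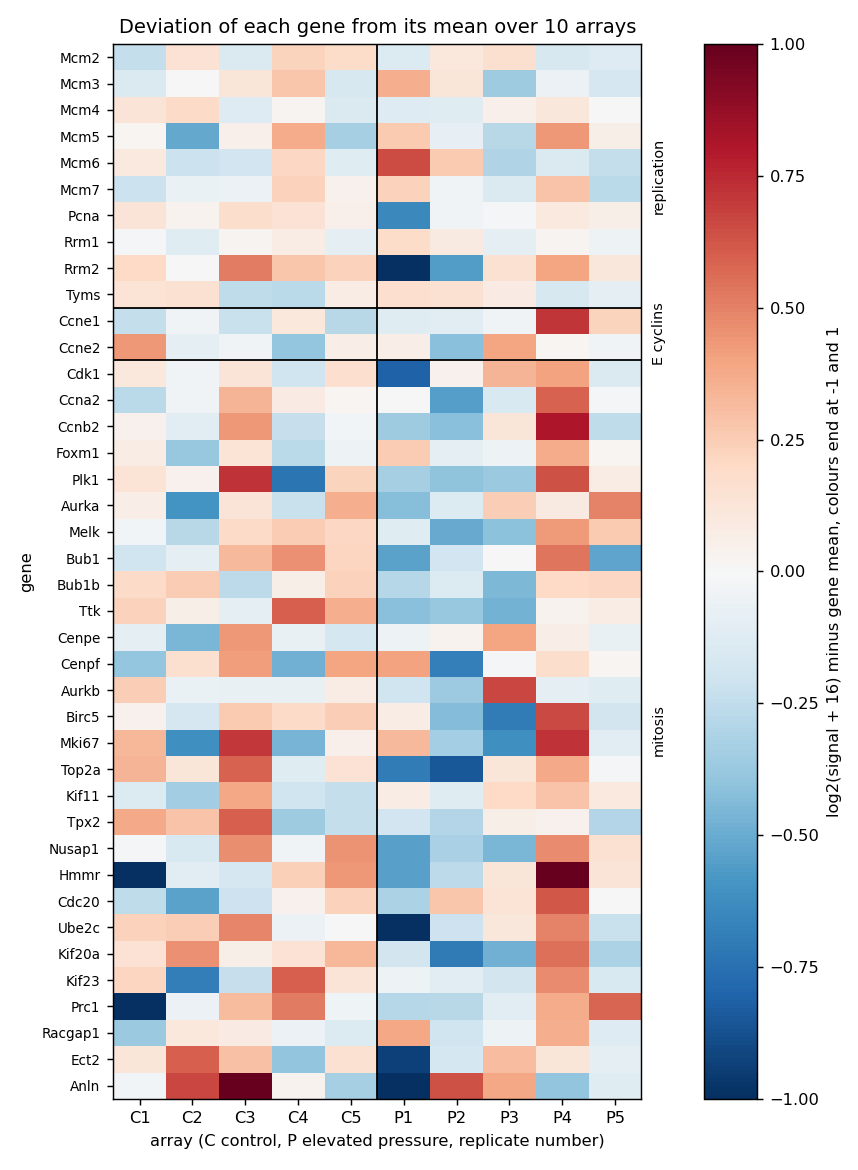
Deviation of each of 40 cell division genes (lines) from its own mean on the 10 arrays (columns, C control and P elevated pressure with replicate number), in log2(signal + 16), red above and blue below the mean, with replication genes at the top, E cyclins next and mitosis genes below. The column of elevated pressure replicate 4 is red in 26 of 28 mitosis genes, and those of replicates 1 and 2 are mostly blue there but not in the replication genes.

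After the group means were taken out, the median correlation between pairs of mitosis genes over the 10 arrays was 0.31 (378 pairs, 81.7% above 0). For pairs of replication genes it was -0.06 (45 pairs, 44.4% above 0), and for all 76787028 pairs of genes 0.02 (51.5% above 0). The pairs share arrays and pools, and these values are a description without a test. Leaving out arrays was chosen after seeing the data. Without elevated pressure replicate 4 the median was 0.16 for mitosis genes, with 63.2% of pairs above 0, and -0.17 for replication genes. Without elevated pressure replicate 1 the medians were 0.37 and 0.12. The mitosis genes also had a wider spread within groups, with a median SD of 0.37 on the log2 scale against 0.21 for the replication genes and 0.21 for all genes. For the 23 mitosis genes whose mean signal was outside the bacterial range the median pair correlation was 0.30 and the median SD 0.39. None of these sets was matched for brightness, on which spread on this scale can depend. Leaving out the dimmest 25% of all genes kept 9 of 10 replication genes but 12 of 28 mitosis genes.

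**Figure D4:**
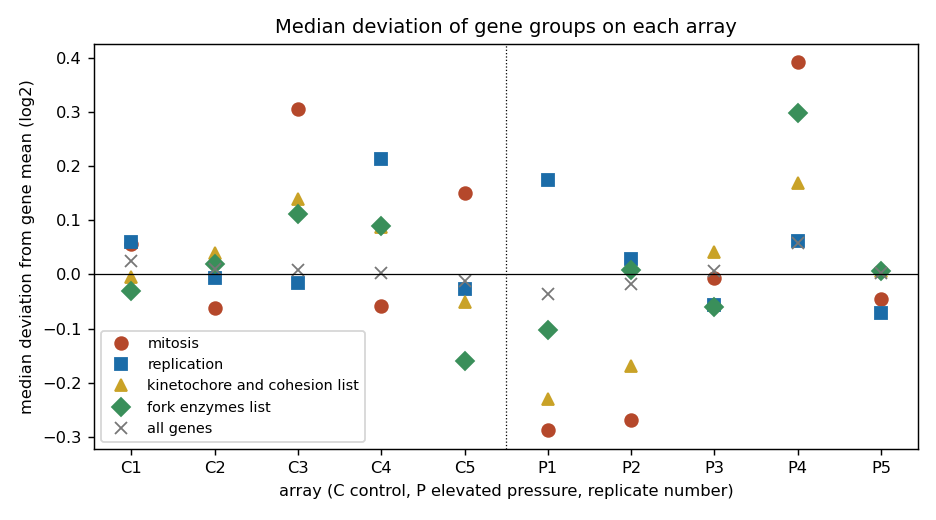
Median deviation from the gene mean (log2 scale) on each of the 10 arrays for the mitosis genes, the replication genes, the 18 measured genes of the kinetochore and cohesion list, the 17 fork enzymes and all 12393 genes. The mitosis points are highest in elevated pressure replicate 4 (0.39) and control replicate 3 (0.30) and lowest in elevated pressure replicates 1 and 2 (-0.29 and -0.27), and the points of all genes stay near 0.

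Marker genes of some other cells also differed between these arrays. Lists for pigment cells, skeletal muscle, adipocytes, lymphocytes and erythroid cells were scored too and are not described here. The mean deviation of 5 of 6 astrocyte markers was highest in control replicate 3 (0.16) and elevated pressure replicate 4 (0.15), the arrays with the highest mitosis medians, and was -0.14 and -0.01 in elevated pressure replicates 1 and 2. It was lowest, at -0.16, in elevated pressure replicate 3. Their summed signal ran from 36474 to 40179 in control and from 36101 to 40104 in elevated pressure arrays. For 5 of 6 photoreceptor markers the mean deviation was 1.45 in elevated pressure replicate 4 and -1.41 in control replicate 3. That of 5 of 6 oligodendrocyte precursor markers was -0.26 and 0.42 in these arrays and -0.65 and 0.19 in elevated pressure replicates 1 and 2, and that of 5 of 5 endothelial markers was 0.21 and -0.05, and -0.66 and -0.28. For 8 of 8 markers of microglia and macrophages it was 0.03 and 0.27, and -0.39 and 0.05. For 7 of 7 mural and fibroblast markers it was 0.01 and -0.09, and -0.13 and -0.06. The summed signal of the precursor markers ran from 9954 to 14051 in control and from 7019 to 12295 in elevated pressure arrays, that of the endothelial markers from 7293 to 10355 and from 8164 to 11404, and that of the microglial markers from 12330 to 15817 and from 11699 to 15020. For photoreceptor markers the sum ran from 469 to 6499 and from 831 to 6889. The part of any of these cells in the mitosis values was not tested.

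Other genes of the cell cycle were counted by role, on 7 lists. Of 97 names 86 were measured. In 31 the fold change was above 0 and in 55 below, where 5857 of all 12393 genes were higher and 6536 lower, and the median on the log2 scale was -0.06. None of the 86 passed the limma test over all genes, and 0 had an unadjusted p under 0.05 in either direction, against 2.65% of all genes higher and 1.32% lower. Among 7 inhibitors of cyclin-dependent kinases 2 were higher and 5 lower, with Cdkn1a, the p53 target p21, at -0.05. Among 6 genes of the D cyclins and their kinases 2 were higher, and Ccnd1, Ccnd2 and Ccnd3 stood at -0.02, -0.03 and 0.10. Of 14 genes of the Rb, E2F and DREAM families 4 were higher (median -0.05), of 15 origin genes 4 (median -0.11), of 17 fork enzymes 10 (median 0.03), of 9 checkpoint and Cdc25 genes 2 (median -0.08) and of 18 kinetochore and cohesion genes 7 (median -0.16). Of the higher genes, those with the smallest p were the primase gene Prim1 (log2 fold change 0.22), the condensin gene Smc4 (0.16) and the polymerase gene Pold1 (0.22). Of the lower genes they were the kinetochore gene Zwint (-0.26), the p53 regulator gene Mdm2 (-0.34) and the clamp loader gene Rfc1 (-0.24). In 1 gene, the origin recognition gene Orc3, which was named after its values were seen, the groups did not overlap: the control mean was 1981 ± 52.7 (SD, n = 5) and that after elevated pressure 1828 ± 57.5 (SD, n = 5), against 0.226% of all genes lower without overlap (limma adjusted p = 0.849).

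The kinetochore and cohesion genes had their highest median deviations in the same 2 arrays as the mitosis genes, 0.17 in elevated pressure replicate 4 and 0.14 in control replicate 3, and their lowest, -0.23 and -0.17, in elevated pressure replicates 1 and 2. Their median pair correlation was 0.17 (153 pairs) and 0.03 without elevated pressure replicate 4. For the 17 fork enzymes it was 0.35, above that of the mitosis genes, and 0.15 without that array. CHR letters lay in 11 of 17 start-site windows of the kinetochore and cohesion genes (64.7%).

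Several genes had more than 1 probe set, and these did not always point the same way. Of the 40 members 22 had several, and in 14 of them another probe set had the opposite sign. Among probe sets outside the bacterial range the widest gaps were those of Top2a (-0.43 and 0.13), Prc1 (0.12 and -0.39) and Rrm1 (0.06 and -0.21), while the pair of Nusap1 stood together at -0.28 and -0.33. For 8 members the probe set used can share probes with other transcripts by its name.

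**Figure D5:**
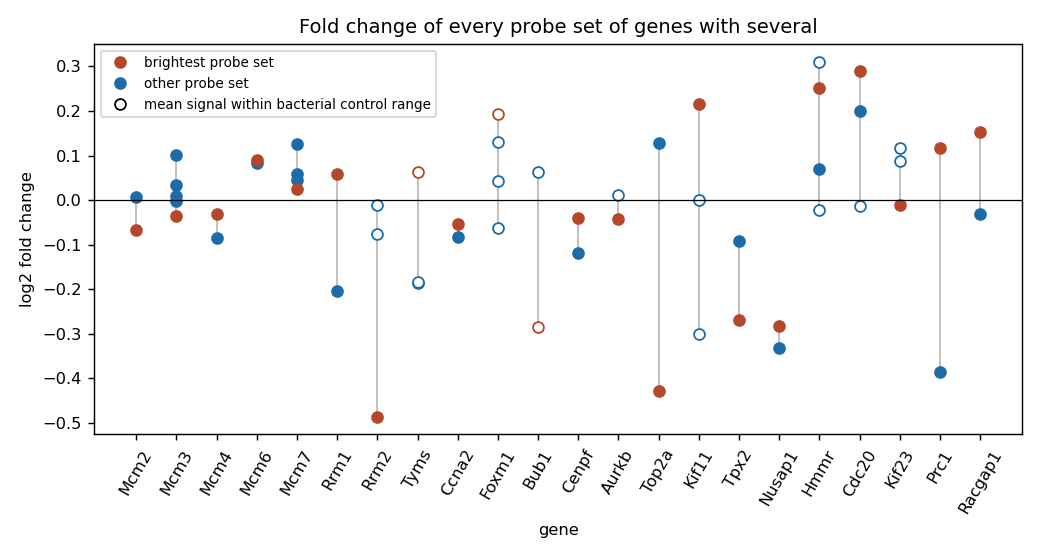
Log2 fold change of every single-gene probe set of the 22 members with several, the brightest in red and the others in blue, with open circles where the mean signal lay within the range of the bacterial controls. Filled points lie on both sides of 0 in Mcm2, Mcm3, Rrm1, Top2a, Prc1 and Racgap1, farthest apart in Top2a and Prc1.

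Over the whole set of arrays the median signal of a probe set ran from 414 to 475, and precision is limited by there being 10 arrays. Elevated pressure replicate 1 stood apart: it correlated with the others at 0.974 on average, where the remaining arrays reached 0.986 to 0.989, and its Gapdh probe sets had a 3′/5′ ratio of 2.07, where the others had 1.53 to 1.73. Without it the medians of the replication and mitosis genes were -0.03 and -0.09, Pcna stood at -0.08, Rrm2 at -0.22, Ube2c at -0.14 and Anln at -0.16. Gfap, the marker of astrocytes, which fill the nerve head, gave a control mean of 11340 ± 492 (SD, n = 5).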

How the data were processed

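Values deposited by the authors are linear intensity per probe set (22690 probe sets, 10 arrays). How they were summarised, background-corrected and normalized is not given in the sources used here. Per the labels' protocols, RNA from each pool was amplified by an Ovation kit and labelled with biotin. Each group had 5 arrays. Signals were put on log2(signal + 16), where fold changes of dim genes are understated. Of 22626 probe sets other than controls, 20380 had 1 gene symbol, 691 several and 1555 none, and 20351 of the 20380 matched RefSeq by Entrez identifier. The brightest probe set per gene gave 12393 genes, with no filter. Groups were compared with limma 3.58.1 (R 4.3.3), without covariates, with Benjamini-Hochberg adjustment over all genes. The test was checked on simulated data. P-values measure the spread between these pools. They treat the groups as independent, although both came from eyes of the same mice.

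Values of every array are given for Mki67, Top2a, Cdk1, Mcm2 and Pcna, for the member with the smallest p in each role and for members at an unadjusted p under 0.05. Ube2c and Anln were added after their values were seen. Members, lists and motifs were chosen with earlier results of these data known. The replicate numbers were not taken as pairs. Alternatives were 2 other normalizations, pseudocounts of 1 and 64, the mean over probe sets, filters at 25% and 50%, a trended robust variance, replicate blocks and leaving out each array. Tables and plots used Python 3.11.15, NumPy 2.4.6, pandas 2.3.3 and Matplotlib 3.10.9.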

Additional observations from a re-analysis of the deposited data

Results flagged for a closer look

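Within 80 groups of 5 arrays (40 genes in each group), 4 had 1 array far from the other 4 by Dixon's gap test at 95%, and chance gives about 1 in 20. Pcna had 1833 in elevated pressure replicate 1, where the other arrays of the group lay between 2807 and 3074. Aurkb had 111 in elevated pressure replicate 3, against 46.3 to 59.1. Kif11 had 109 in control replicate 3, against 58.8 to 70.7. Kif23 had 77.7 in elevated pressure replicate 4, against 43.4 to 49.2.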

How the results depend on the processing

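No member passed an adjusted p under 0.05 under any of the 20 alternatives, and the lowest adjusted p was 0.561. With 1 array left out the median log2 fold change ran from -0.23 to -0.01 for mitosis genes and from -0.03 to 0.05 for replication genes. The mitosis median was -0.15 with the 25% filter and -0.10 with the mean over probe sets, and the 50% filter left no mitosis gene. It was -0.03 with either other normalization. The median of all genes moved as well, from -0.009 to 0.017 with quantile normalization and 0.015 with equal medians. The correlations of deviations did not pair equal replicate numbers (2 of 5 pairs over 0.1, and 2 of 5 control arrays closest to their own number). With the replicate block, fixed or random, 0 members were called, and Ttk alone was at an unadjusted p under 0.05. Every replicate number is in both groups, so a block cannot move a fold change, and the medians stayed at -0.06 and -0.00. Of the 40 members 21 kept their sign under every alternative in which they were measured, 15 lower and 6 higher, and the largest size among the other 19 was 0.25. The filters, the trended variance and the blocks leave each fold change as it is, so they could not change a sign. Signs changed with quantile normalization (Kif23 at 0.00040, Mcm4 at 0.0052, Mki67 at 0.020), equal medians (Kif23 at 0.011, Mki67 at 0.016), a pseudocount of 1 (Kif23 at 0.0060) and the mean over probe sets (Kif11 at -0.028, Kif23 at 0.065, Mcm3 at 0.021, Prc1 at -0.13, Rrm1 at -0.073, Tyms at -0.10). Leaving out 1 array gave ranges across 0 for Aurka -0.028 to 0.23, Aurkb -0.22 to 0.043, Ccna2 -0.21 to 0.077, Ccnb2 -0.25 to 0.064, Ccne2 -0.087 to 0.12, Cdk1 -0.17 to 0.13, Cenpf -0.17 to 0.12, Hmmr -0.013 to 0.42, Kif23 -0.18 to 0.14, Mcm3 -0.13 to 0.048, Mcm4 -0.071 to 0.013, Mcm6 -0.060 to 0.18, Mcm7 -0.044 to 0.096, Mki67 -0.19 to 0.17, Plk1 -0.36 to 0.0020, Prc1 -0.13 to 0.26. The cause was not tested. For dim genes, signal over background limits what a fold change can show.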
